A study of Mus musculus with 3 samples.

Results

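The cornea of mice given PNU-282987 eyedrops was set against the cornea of mice whose lacrimal gland had been removed, across every gene with at least 20 counts in either of the 2 libraries. This rule kept 13855 of the 21760 genes in the series' table, 12846 of them protein coding and 1009 non-coding. The series holds 3 libraries of total RNA from mouse cornea, 1 for each group. Sham mice were cut at the site of the gland, which was left in place, the excision group had lacrimal gland excision, a surgical model of dry eye, and the PNU-282987 group had eyedrops of that compound 3 times a day. The study asked what the α7 nicotinic acetylcholine receptor does in dry eye disease. The labels give no strain, age, genotype or time point, do not say whether the PNU-282987 mice had also lost the gland, and do not say whether corneas of several mice were pooled.

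PNU-282987 is an agonist of the α7 nicotinic receptor, an acetylcholine-gated cation channel of neurons and of some immune cells. The cornea is the transparent front of the eye, with a stratified epithelium on a collagen-rich stroma and an inner endothelium that pumps fluid out. Its surface is kept wet by the lacrimal gland, by goblet cells of the neighbouring conjunctiva that secrete gel-forming mucins, and by membrane mucins on the epithelium itself. Type I and type III interferons act through JAK kinases and switch on antiviral genes, many of which carry the interferon-stimulated response element (ISRE) in their promoters.

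Total counts were 37692972 for excision and 39616004 for PNU-282987, and 37703843 for sham, whose counts stand beside each named gene in the order sham, excision, PNU-282987. A ratio is the PNU-282987 count over the excision count after scaling by TMM, a factor that aligns the bulk of genes between libraries. Its 95% interval covers counting error only. With 1 library per group nothing measures the spread between mice, so no test was made, and each ratio compares 2 libraries and not 2 conditions. A gene is called higher or lower in PNU-282987 when the ratio is at least 2-fold and the interval excludes equal levels. Of the 13855 genes, 520 (3.75%) were higher and 775 (5.59%) lower, 9.35% in either direction, while 10962 lay within 1.5-fold and the median log2 ratio over all of them was 0.0075. The shares of 3.75% and 5.59% are the background for the calls in each list below. Calls were most frequent among scarce genes: below 1 CPM (counts scaled to a common library size) 15.8% were higher and 25.5% lower, and from 10 to 100 CPM 0.777% and 1.39%. At the far ends, 55 genes were at least 10-fold higher and 75 at least 10-fold lower. In bulk tissue, fewer cells of a type and less RNA per cell cannot be told apart.

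Transcripts of the lens and of the corneal endothelium had unequal summed levels in the libraries. The summed level of 25 lens genes was 173 CPM in excision, 812 CPM in PNU-282987 and 908 CPM in sham. Corneal endothelial markers summed to 1240 CPM in excision, 1632 CPM in PNU-282987 and 1999 CPM in sham. A further setting, chosen after seeing the data, left out the members of 12 lists. These cover lens, retina, pigment cells, corneal endothelium, conjunctiva, glands, mucins, mucin glycosylation, muscle, red blood cells and fat. With them left out, 464 genes were higher and 767 lower.

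**Figure D1:**
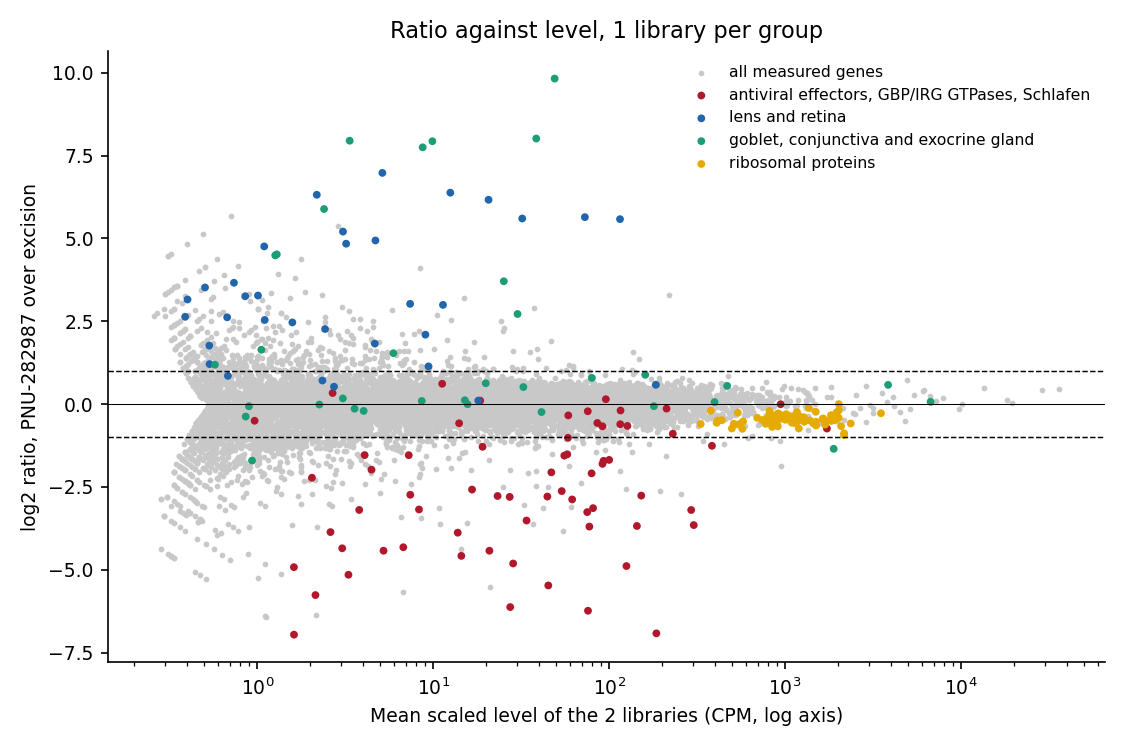
Each point is 1 of the 13855 genes, with the mean scaled level of the excision and PNU-282987 libraries in CPM on a log axis and the log2 ratio of PNU-282987 over excision on the vertical axis; dashed lines mark 2-fold. Red interferon-linked genes reach a log2 ratio of -6.96, blue lens and retina genes lie above 0, green secretory genes reach 9.83, and the abundant yellow ribosomal protein genes sit just under 0.

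Genes lower in PNU-282987 included many antiviral genes whose promoters hold the ISRE core, and 4 such promoters are shown to let those letters be seen. They were picked for having a match in the bases shown. Genes with larger ratios but no window or no such match were passed over, among them Ifi27l2a, Oas2 and Ifi44. The sequences are from RefSeq on GRCm38.p6 and run 5′ to 3′ on the gene's strand over the 150 bases before the annotated start. Capitals mark matches to the ISRE core (GAAA, any 2 bases, GAAA) or its other strand (TTTC, any 2 bases, TTTC), and matches may overlap. Rsad2, at chr12:26456453-26456602 on the minus strand, encodes the antiviral enzyme viperin. Apol9b, at chr15:77728922-77729071 on the plus strand, belongs to the apolipoprotein L family. Phf11a is at chr14:59297523-59297672 on the minus strand, and Oas1g, a 2′-5′ oligoadenylate synthetase gene, at chr5:120887614-120887763 on the minus strand.
Rsad2: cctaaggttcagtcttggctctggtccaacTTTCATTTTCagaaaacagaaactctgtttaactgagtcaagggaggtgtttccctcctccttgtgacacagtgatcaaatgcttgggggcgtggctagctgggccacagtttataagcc
Apol9b: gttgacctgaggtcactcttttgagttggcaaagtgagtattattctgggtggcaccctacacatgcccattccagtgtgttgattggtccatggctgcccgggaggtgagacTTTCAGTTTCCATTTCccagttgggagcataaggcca
Phf11a: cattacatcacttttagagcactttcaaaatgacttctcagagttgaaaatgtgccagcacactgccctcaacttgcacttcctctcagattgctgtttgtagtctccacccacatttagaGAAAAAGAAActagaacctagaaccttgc
Oas1g: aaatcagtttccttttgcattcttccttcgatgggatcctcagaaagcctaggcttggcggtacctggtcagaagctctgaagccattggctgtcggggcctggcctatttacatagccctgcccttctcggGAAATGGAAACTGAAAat
The match in Rsad2 begins 120 bases before the start, that in Phf11a 29 bases, and the first of the overlapping pairs in Apol9b and Oas1g 37 and 18 bases.

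RefSeq windows of 250 bases before to 50 after the start were found for 10977 of the 13855 measured genes, and 404 of these (3.68%) held an ISRE core, as did 1079 of all 27025 genes with a window (3.99%). Genes lower in PNU-282987 held it in 59 of 550 cases (10.7%), and genes higher in PNU-282987 in 14 of 392 (3.57%). By list, it was found in 20 of 35 antiviral effector genes, 8 of 9 interferon-inducible GTPase genes, 9 of 15 TRIM and PARP genes and 5 of 20 MHC class I genes. Among antiviral effectors, 16 of the 24 called lower and 4 of the 11 not called had a match. For comparison, the core of the gamma-activated site (GAS, TTCNNNGAA, which reads the same on both strands) was in 40 of 550 lower genes (7.27%), 35 of 392 higher genes (8.93%) and 910 of the 10977 measured genes (8.29%). In the same lists, GAS was in 5 of 9 interferon-inducible GTPase genes and 8 of 35 antiviral effector genes. It was in 2 of 20 MHC class I genes and 1 of 15 TRIM and PARP genes. A match is a run of letters in this window and not a site shown to be bound.

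**Figure D2:**
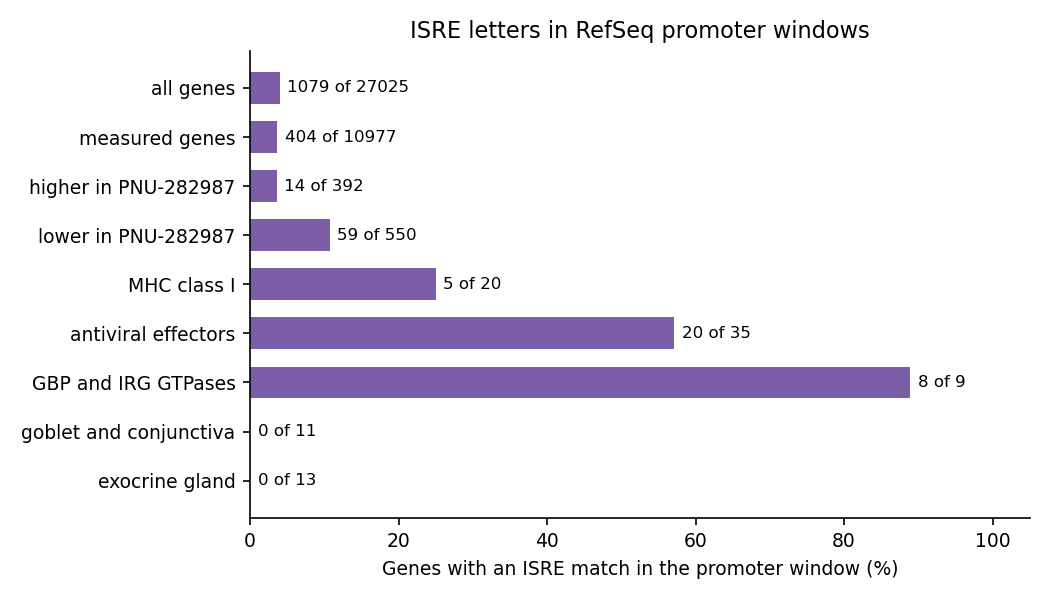
Bars give the percentage of genes with at least 1 ISRE core match in the RefSeq promoter window of 250 bases before to 50 after the start, with the number of genes beside each bar. Genes lower in PNU-282987 stand at 59 of 550, against 404 of 10977 measured genes, and 8 of 9 GBP and IRG GTPase genes hold a match.

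The calls among interferon-linked genes ran in 1 direction. Of 142 measured genes in 8 lists of interferon signalling and its targets, 68 (47.9%) were lower in PNU-282987 and none higher, where 5.59% of all measured genes were lower. Among the ligands, Ifnl2, a type III interferon that acts mainly on epithelia, had 0 (sham), 101 (excision) and 0 (PNU-282987) counts. Its near-identical neighbour Ifnl3 had 0, 82 and 0 counts, and reads may be split between the pair. Both passed the count minimum through excision alone. Against a floor of 3 counts Ifnl2 was at least 35.2-fold lower and Ifnl3 at least 28.6-fold. The receptor chains were not called: Ifnlr1, the chain specific to type III interferon, had 1165, 1226 and 1191 counts, and Ifnar1 of the type I receptor had 1080, 887 and 1037 counts. Their log2 ratios were -0.11 and 0.16, and all 6 measured receptor genes stayed within 2-fold.

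In the signalling layer the called genes were STATs and IRFs. Stat2 had 1064, 3448 and 980 counts and was 3.68-fold lower (95% interval 3.43 to 3.96). Irf7, the factor that amplifies type I interferon output, was 2.98-fold (2.88 to 3.09) lower and Irf9 2.74-fold (2.59 to 2.89). In all 4 of 18 measured JAK, STAT and IRF genes were lower, and the other 14 lay within 2-fold. Among those 14 Irf1 had 13565, 14606 and 14434 counts, Irf3 2400, 2015 and 2444 counts, Jak1 7288, 6723 and 9259 counts and Stat3 4577, 4849 and 5574 counts. Of 14 feedback inhibitors 3 (21.4%) were lower, where 5.59% of all measured genes were. Usp18, which removes ISG15 from proteins and blocks the type I receptor, was 8.76-fold (7.82 to 9.84) lower. Socs1 was 3.43-fold (2.42 to 4.95) and Socs3 2.33-fold (1.18 to 4.89) lower, the last on 50, 29 and 13 counts.

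Among sensors of foreign nucleic acid 8 of 18 genes (44.4%) were lower, against 5.59% of all measured genes (list median -0.78). Zbp1, a sensor of Z-form nucleic acid, had 593, 3798 and 278 counts and was 14.3-fold lower (95% interval 12.7 to 16.2). Dhx58, which encodes LGP2 of the RIG-I-like family, was 5.51-fold (4.99 to 6.1) lower and Ddx60 had 2148, 6870 and 1787 counts. The PYHIN genes Ifi207, Mndal, Ifi203, Ifi211 and Ifi205 were lower as well, with Mndal at 140, 1069 and 93 counts. Other members were not called: Mavs, the mitochondrial adaptor of RIG-I-like sensors, had 2751, 3291 and 3754 counts, the kinase gene Tbk1 1287, 1213 and 1409 counts and the receptor gene Tlr3 442, 685 and 695 counts.

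Antiviral effectors were lower for 27 of 42 genes, and none was higher (list median -1.85). Ifi27l2a had 370 (sham), 13664 (excision) and 118 (PNU-282987) counts, 121-fold lower (95% interval 101 to 146). Rsad2, shown above, had 170, 2005 and 30 counts and was 69.9-fold (48.8 to 104) lower. Apol9b was 44.5-fold (35.5 to 56.5) lower, with reads that Apol9a may share, Oas2 29.6-fold (26.5 to 33.3), Ifi44 28.1-fold (22.3 to 35.8), Cmpk2 21.5-fold (17 to 27.6), Phf11a 20.4-fold (11.2 to 41.6) and Oas1g 14.7-fold (11.5 to 19.1). In each of these genes the PNU-282987 count was also below the sham count. Among abundant members Isg15, a ubiquitin-like modifier, had 3731, 20819 and 1732 counts and was 12.6-fold (12 to 13.2) lower, and Ifit3, which binds viral RNA complexes, had 2789, 19605 and 2236 counts and was 9.17-fold (8.78 to 9.59) lower.

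The 15 effectors outside the calls included Ifitm1, at a like level in all libraries. Ifitm1, a restriction factor of viral entry, had 33155, 35110 and 36607 counts. Samhd1, which depletes nucleotides, had 2421, 4600 and 4208 counts, and Apobec3, a cytidine deaminase, had 164, 330 and 528 counts. Both of the latter had more counts in the excision and PNU-282987 libraries than in sham. The same held outside the list for Ly6e, an interferon-inducible Ly6 gene, at 10561, 26267 and 23478 counts, and for Casp1, the inflammasome protease, at 3, 99 and 196 counts, genes singled out after their values were seen.

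The interferon-inducible GTPases were lower in 15 of 16 measured genes (list median -2.80), of which 4 were under the count minimum in PNU-282987. Tgtp2 had 1, 119 and 1 counts and its near-identical copy Tgtp1 4, 238 and 7 counts. Gbp9 was 23.9-fold (17.8 to 33) lower, Gbp6 20.002-fold (13.4 to 31.2), Gvin2 30.3-fold (11.5 to 113) and Gvin1 14.6-fold (8.31 to 27.9), while Gbp2 had 2093, 4176 and 2746 counts and was not called. Guanylate-binding proteins coat and break open the vacuoles of intracellular microbes. Schlafen genes were lower in 6 of 7, of which 2 were under the count minimum in PNU-282987. Slfn4 had 367, 5556 and 77 counts (75.5-fold (60.3 to 95.8) lower), Slfn1 8, 156 and 3 counts and Slfn5 4, 370 and 18 counts. Among TRIM ligases and PARPs the shift was broad but small, with all 19 log2 ratios below 0 and 3 called: Trim30d (20.8-fold (15.7 to 28.1) lower), Trim30a (5.2-fold (4.83 to 5.6)) and Parp14 (2.13-fold (2.03 to 2.24)).

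**Figure D3:**
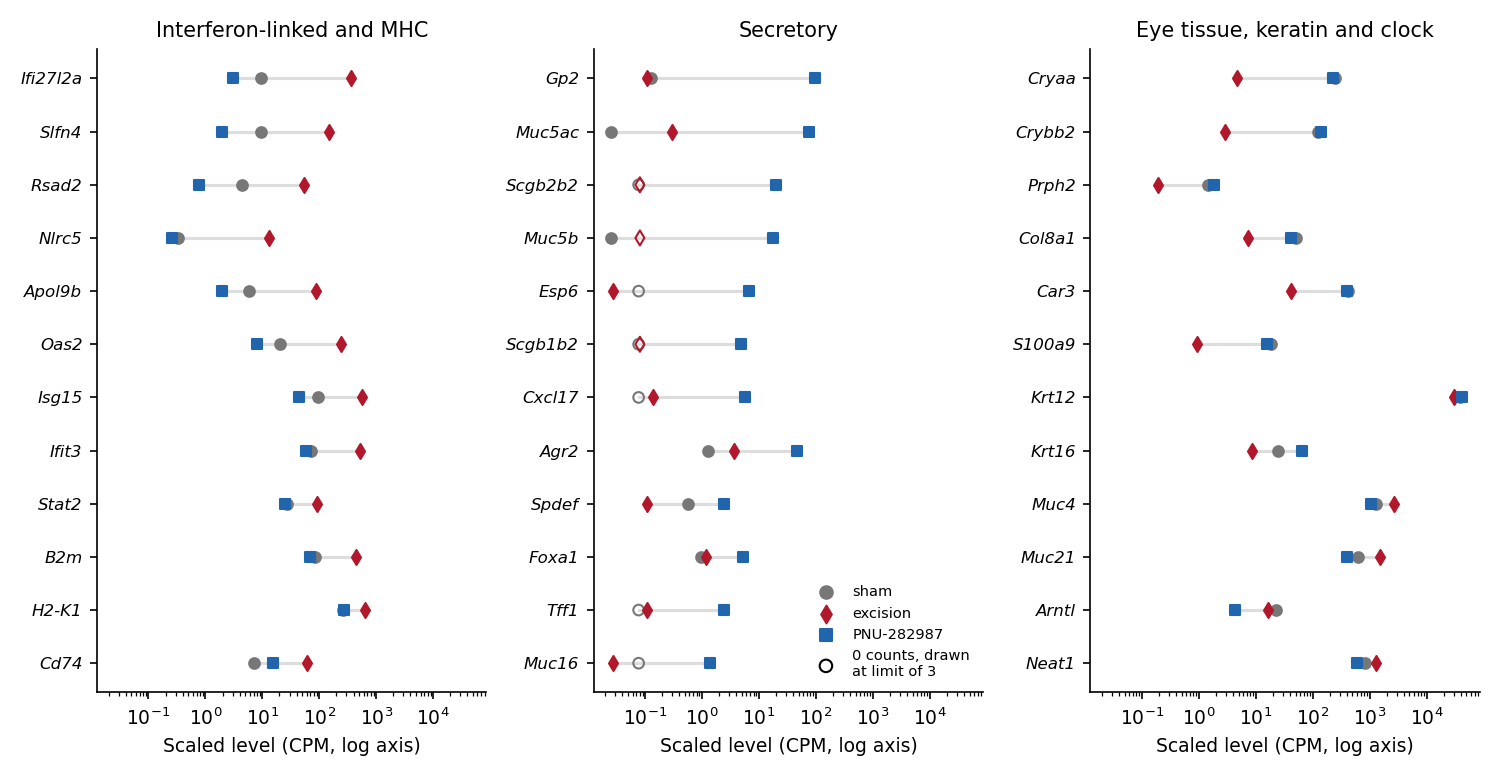
Scaled level in CPM on a log axis for 36 genes in the sham (grey circle), excision (red diamond) and PNU-282987 (blue square) libraries, 1 library each; open symbols are counts of 0 drawn at the limit of 3 counts. Excision is highest for all 12 interferon-linked and MHC genes, PNU-282987 is highest for all 12 secretory genes, and excision is lowest for Cryaa, Crybb2, Prph2, Col8a1, Car3 and S100a9.

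Antigen presentation followed the same direction. In the MHC class I list 11 of 24 genes were lower and none higher (median -0.93). Of the 11, 4 were under the count minimum in PNU-282987 and were measured through excision alone, Nlrc5 among them. Nlrc5, the transactivator of class I genes, had 13, 489 and 10 counts and was 51.2-fold lower (95% interval 27.6 to 107). B2m, the invariant light chain, had 3264, 16512 and 2657 counts (6.5-fold (6.24 to 6.78) lower), the heavy chain gene H2-K1 10176, 23382 and 10680 counts (2.29-fold (2.24 to 2.34)) and H2-Q4 664, 2830 and 524 counts (5.65-fold (5.15 to 6.21)), with reads among H2 genes possibly shared. The peptide transporter genes Tap1 and Tap2 were 2.25-fold (2.13 to 2.39) and 2.07-fold (1.94 to 2.21) lower. Chaperones of the loading complex that serve all secreted proteins lay on the other side of 0, with Pdia3 at 12572, 9859 and 15388 counts and Calr at 14262, 13952 and 19974 counts, neither called.

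MHC class II genes, used by professional antigen-presenting cells, were lower in 7 of 8 measured genes (median -1.44), of which 1 was under the count minimum in PNU-282987. Cd74, the invariant chain, had 282, 2297 and 591 counts and was 4.07-fold lower (95% interval 3.71 to 4.46). The class II chain genes H2-Eb1, with 119, 969 and 253 counts, and H2-Ab1, with 94, 736 and 204 counts, were 4.01-fold (3.49 to 4.62) and 3.77-fold (3.23 to 4.43) lower. H2-Aa, with 116, 796 and 301 counts, was 2.77-fold (2.42 to 3.17) lower. In each of these 4 genes the PNU-282987 count stood between sham and excision. Ciita, the class II transactivator, had 6, 25 and 12 counts.

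Macrophage markers were below 0 in 20 of 20 measured genes, 11 of them called (median -1.08), and 5 of the 11 passed the count minimum through excision alone. Lyve1 had 2, 23 and 1 counts, the mannose receptor gene Mrc1 6, 33 and 3 counts (11.5-fold (3.61 to 58.6) lower), C1qb of complement 82, 249 and 72 counts (3.62-fold (2.77 to 4.77)) and Fcgr3 67, 84 and 26 counts (3.38-fold (2.15 to 5.47)). General macrophage markers differed less: Adgre1, which encodes F4/80, had 22, 37 and 23 counts, an interval for the lower fold of 0.974 to 2.97 that includes equal levels, and Cd68 had 494, 834 and 746 counts, a ratio within 2-fold. The summed level of the 24 macrophage genes was 361 CPM in excision, 252 CPM in PNU-282987 and 241 CPM in sham. Among 14 measured lymphatic and vascular markers 6 were lower, 5 of these measured through excision alone, and 5 of the 14 lay above 0. Those lower included Flt4, the lymphatic growth factor receptor, at 15, 54 and 8 counts, Ccl21a at 59, 310 and 68 counts and Pecam1 at 19, 36 and 10 counts. Summed over the 22 genes of that list, the level was 79.8 CPM in excision, 78.0 CPM in PNU-282987 and 88.5 CPM in sham. The part of vessel markers in the macrophage result was not tested, and Lyve1 and Ccl21a are also made by lymphatic vessels.

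Of 11 measured genes used to describe macrophage states 4 were lower and 1, Ptgs2, was higher. All 5 of these passed the count minimum only through the library in which they were higher. Tnf had 816, 352 and 337 counts and Arg1, arginase, 9388, 10958 and 12197 counts, both within 2-fold. Nos2 had 6, 16 and 8 counts and Il1b 10, 12 and 2 counts, under the count minimum in both libraries. The genes lower in PNU-282987 were Mrc1, Ccl5 (5, 73 and 2 counts) and Cxcl9 (1, 29 and 0 counts), chemokines that attract T cells, and Retnla (0, 34 and 0 counts). T and NK cell markers gave 5 of 7 genes lower, but 6 of the 7 reached the count minimum through excision alone, and their sum was 10.8 CPM in excision and 2.50 CPM in PNU-282987. Cd8a had 0, 37 and 1 counts, Cd3g 0, 28 and 0 counts and the killer-cell protease gene Gzma 3, 82 and 14 counts.

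Of 7 measured neutrophil markers 2 (28.6%) were higher and none lower, where 3.75% of all measured genes were higher. Of the 2, Cd177 passed the count minimum through PNU-282987 alone. S100a9, an alarmin of neutrophils and stressed epithelium, had 718, 34 and 617 counts and was 17.3-fold higher (95% interval 12.3 to 25.3), and Cd177 had 70, 10 and 25 counts. Granule genes were not called, with Mpo at 515, 112 and 131 counts and Elane at 602, 132 and 156 counts. Haemoglobin genes were lower, Hbb-bs at 1291, 224 and 32 counts (7.32-fold (5.04 to 11)) and Hba-a1 at 612, 122 and 26 counts (4.91-fold (3.19 to 7.81)), with reads possibly shared among copies. Of 20 NF-kB genes, 3 (15%) were higher and none lower, where 3.75% of all measured genes were higher. The 3 were the adhesion molecule gene Icam1 (65, 41 and 138 counts, 3.22-fold (2.26 to 4.68)), Tnfaip2 (2.63-fold (2.07 to 3.37)) and the inhibitor Nfkbie (2.42-fold (1.55 to 3.9)). The subunit genes Nfkb1, Rela and Relb all lay within 2-fold, and the median of the NF-kB list was 0.06 with 9 of 20 below 0.

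Products of goblet cells and exocrine glands had ratios among the largest in the other direction. Gp2, a glycoprotein of secretory epithelia, had 5 (sham), 4 (excision) and 3801 (PNU-282987) counts, 908-fold higher (95% interval 354 to 3336). The gel-forming mucin genes Muc5ac and Muc5b had 1, 11 and 2980 counts and 1, 0 and 676 counts, so that Muc5ac was 259-fold (145 to 519) higher and Muc5b at least 215-fold higher against the floor. Scgb2b2, a secretoglobin gene, had 0, 0 and 768 counts (at least 245-fold higher), and its relative Scgb1b2 0, 0 and 186 counts (at least 59.3-fold higher), while the gland peptide gene Esp6 had 0, 1 and 259 counts and was 248-fold (44 to 9816) higher. Cxcl17, a mucosal chemokine, had 0, 5 and 217 counts (41.5-fold (17.5 to 129) higher). In excision and in sham each of these 7 genes had 11 counts or fewer, so they were measured through the PNU-282987 library alone.

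Of 16 measured gland and goblet transcription factor genes 4 (25%) were higher and none lower, where 3.75% of all measured genes were higher. The list's median was -0.02, and 9 of 16 lay below 0. Among the genes named in this paragraph, Spdef, Bhlha15, Tff1, Creb3l4, Galnt6 and Fut2 passed the count minimum through PNU-282987 alone. Spdef, the transcription factor that specifies goblet cells, had 22, 4 and 94 counts (22.5-fold (8.49 to 84.2) higher), Foxa1 38, 43 and 206 counts (4.58-fold (3.28 to 6.52)) and Bhlha15, which scales up secretory capacity in gland cells, 13, 5 and 20 counts (3.82-fold (1.39 to 13)). Agr2, the disulfide isomerase needed for mucin folding, had 49, 133 and 1817 counts (13.1-fold (10.9 to 15.7) higher), and the trefoil peptide gene Tff1 0, 4 and 96 counts. Creb3l4 and Creb3l1, membrane-bound factors of the secretory pathway, were 5.14-fold (2.99 to 9.39) and 2.68-fold (1.67 to 4.41) higher. Galnt6, which starts O-glycan chains, had 18, 9 and 69 counts (7.33-fold (3.65 to 16.7) higher), the fucosyltransferase gene Fut2 11, 11 and 27 counts and Fut9 23, 39 and 85 counts. These were the 3 (13.6%) called higher of 22 measured mucin glycosylation genes, and none was lower.

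Of 31 measured genes for protein secretion and its stress response 4 (12.9%) were higher, all named above, and none lower, where 3.75% of all measured genes were higher. Of the 4, Creb3l4 (11, 16 and 86 counts) and Bhlha15 passed the count minimum through PNU-282987 alone. The list's median was 0.34 and 25 of 31 lay above 0. Among those not called Xbp1 had 5697, 4307 and 6289 counts and Hspa5, the luminal chaperone BiP, 10806, 9110 and 12117 counts. Other goblet and conjunctival markers were close between the libraries: Tff3 had 99, 107 and 126 counts, Muc2 122, 139 and 132 counts, Fcgbp 1257, 1659 and 1469 counts, and Krt19 2942, 6819 and 6825 counts. Krt13 and Krt4, keratins of conjunctival epithelium, also lay within 2-fold, and the part of conjunctival or gland tissue in the secretory values was not tested. In all, 7 of 21 genes (33.3%) of the goblet and conjunctival list were higher and 1 (4.76%) lower. Of those called, 4 were under the count minimum in 1 of the 2 libraries. The exocrine list had 6 of 14 (42.9%) higher and 1 (7.14%) lower, with 7 of the 14 under the count minimum in 1 of the 2 libraries. Lyz1, a lysozyme gene, was its lower member (29, 53 and 17 counts), and Ltf, lactoferrin, had 920, 995 and 1486 counts. The summed level of the exocrine list was 6666 CPM in excision and 7178 CPM in PNU-282987, with Aqp5, a water channel gene at 234339, 243455 and 267419 counts, making up most of it.

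Membrane mucins on the epithelial surface differed by gene. Muc4 had 50645 (sham), 100816 (excision) and 41394 (PNU-282987) counts and was 2.55-fold lower (95% interval 2.52 to 2.58), with the largest absolute difference of any lower gene. Muc21 had 24840, 55543 and 15894 counts (3.66-fold (3.59 to 3.72) lower), and Muc1 (590, 2445 and 1619 counts) and Muc20 (7525, 12971 and 9789 counts) were below 0 without reaching 2-fold. Muc16, a membrane mucin of the tear-film glycocalyx, had 0, 1 and 54 counts (51.6-fold (8.88 to 2076) higher) and passed the count minimum through PNU-282987 alone. Of the 9 measured genes in this list, 2 (22.2%) were lower and 1 (11.1%) higher, where 5.59% and 3.75% of all measured genes were. In the list 6 lay below 0.

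**Figure D4:**
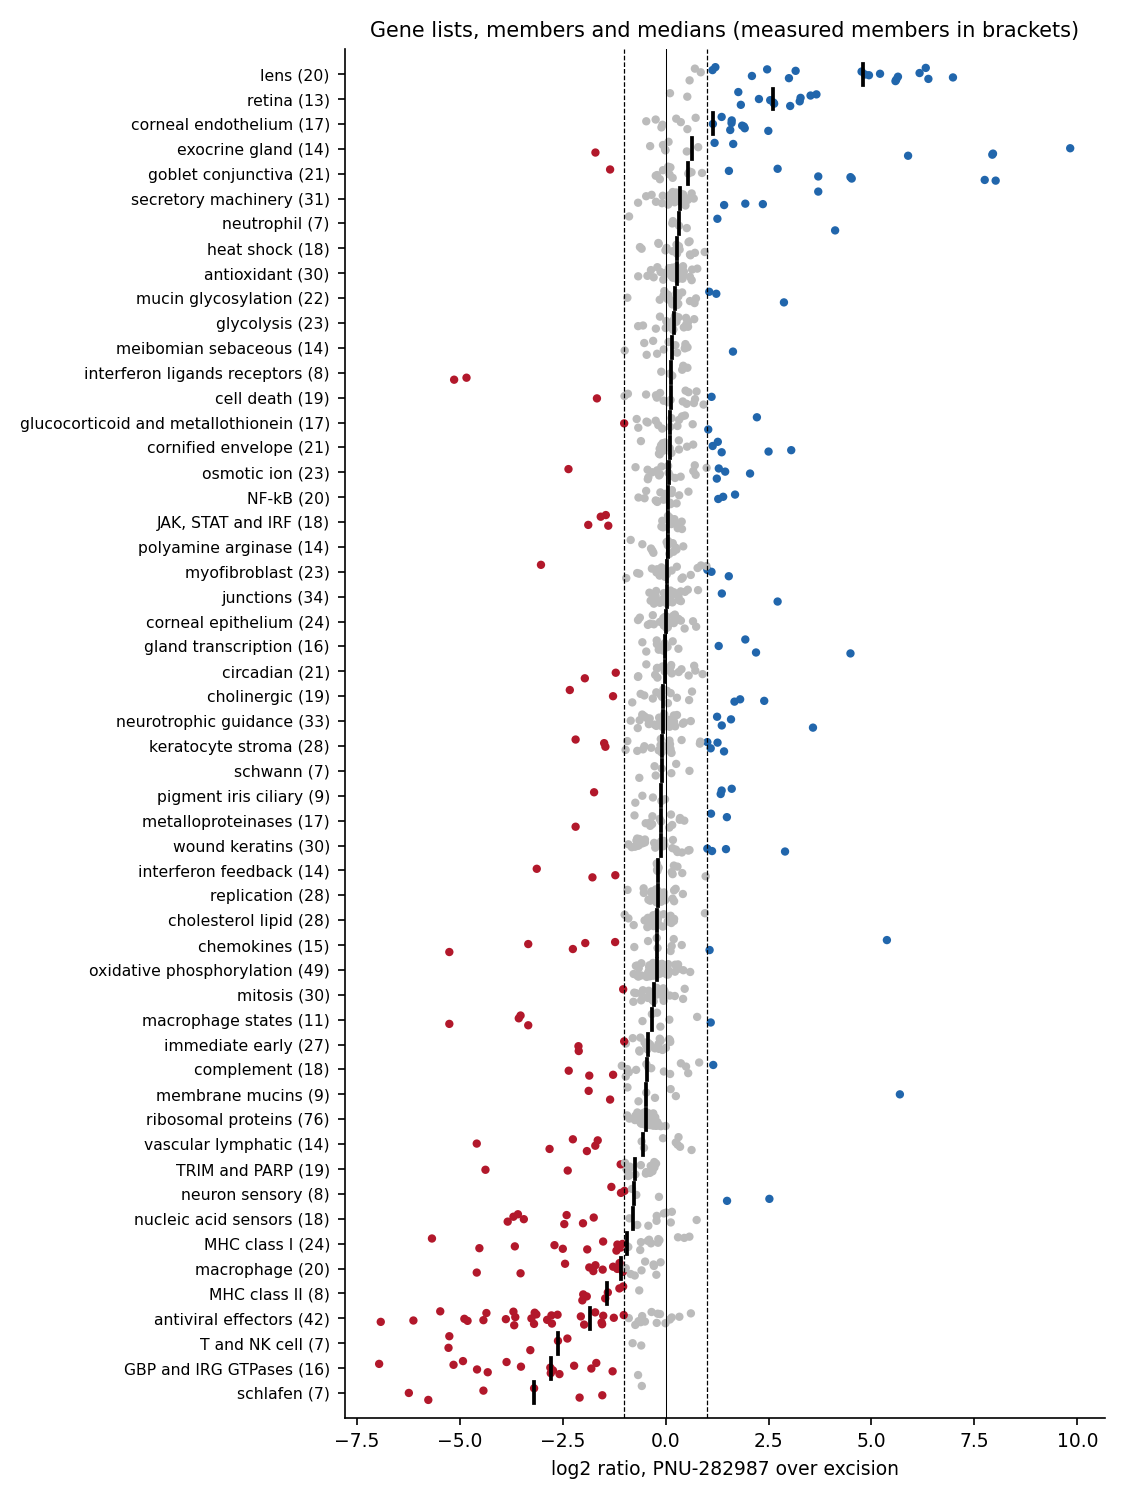
Each point is a measured member of a gene list, placed by its log2 ratio of PNU-282987 over excision, with red for called lower, blue for called higher, grey for not called, a black bar at the list's median and dashed lines at 2-fold. Lists are ordered by median, from -3.20 for Schlafen genes to 4.80 for lens genes, and the number of measured members is in brackets.

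Lens, retinal and corneal endothelial transcripts were higher in PNU-282987 than in excision. Lens genes were higher in 17 of 20 cases, 85% against 3.75% of all measured genes (median 4.80), although 11 of the 20 were under the count minimum in excision. Cryaa, the major lens chaperone, had 9525 (sham), 175 (excision) and 8774 (PNU-282987) counts, 47.9-fold higher (95% interval 41.3 to 56). The β-crystallin genes Crybb1 and Crybb2 were 126-fold (42.9 to 614) and 49.98-fold (41.2 to 61.2) higher, and Cryba2 83.4-fold (46.4 to 168). Crygs had 2021, 21 and 1580 counts and Lgsn 229, 2 and 167 counts, while γ-crystallin genes such as Crygd (839, 6 and 232 counts), Crygb and Crygc are alike enough to share reads. The list's median log2 ratio over sham was -0.34 for PNU-282987 and -5.02 for excision, comparisons that share the sham library. Mip, the lens water channel, was at 0 in excision (76, 0 and 85 counts).

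Retinal genes were higher in 11 of 13 cases, or 84.6% (median 2.62), of which 8 were under the count minimum in excision and were measured through PNU-282987 alone. Prph2, which shapes the discs of photoreceptors, had 56, 7 and 71 counts (9.7-fold (4.47 to 25) higher), the photoreceptor transcription factor genes Nr2e3 120, 4 and 53 counts and Nrl 15, 3 and 36 counts. Their summed level was 26.5 CPM in excision, 58.6 CPM in PNU-282987 and 41.7 CPM in sham.

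Among endothelial genes 9 of 17 (52.9%) were higher and none lower (median 1.15). Col8a1 and Col8a2, collagens of Descemet's membrane, were 5.63-fold (4.95 to 6.43) and 2.97-fold (2.84 to 3.1) higher, the latter on 12972, 2555 and 7930 counts. The bicarbonate transporter gene Slc4a4 was 3.79-fold (3.22 to 4.47) higher, the sodium pump subunit gene Atp1b1 3.73-fold (3.44 to 4.05) and Cdh2, N-cadherin, 3.63-fold (2.67 to 5.0). Col8a1, Col8a2, Slc4a4, Atp1b1 and Cdh2 all had their highest count in sham. Slc4a11, the transporter mutated in endothelial dystrophy, was below 2-fold at 6183, 1577 and 2379 counts. Car3, carbonic anhydrase 3, had the largest absolute difference of any higher gene, at 16340, 1519 and 15454 counts (9.73-fold (9.23 to 10.3)). Cldn10, a claudin of ion-transporting epithelia, had 2889, 295 and 2033 counts (6.59-fold (5.83 to 7.47) higher). The lens and endothelial sums moved the same way across these libraries, and their part in the Car3 and Cldn10 values was not tested.

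Of 28 keratocyte and stromal genes 4 (14.3%) were higher and 3 (10.7%) lower, where 3.75% and 5.59% of all measured genes were. The list's median was -0.08. Ogn, a small leucine-rich proteoglycan, was 2.67-fold (2.38 to 3.01) higher, Thbd 2.4-fold (2.0 to 2.88) and Smoc1 2.02-fold (1.75 to 2.33), and these had higher counts still in sham. Mmp3, stromelysin, was 4.55-fold (3.72 to 5.62) lower on 97, 505 and 116 counts, Col14a1 2.82-fold (1.45 to 5.8) and Col3a1 2.76-fold (2.18 to 3.51). The core keratocyte genes were level: Kera had 7395, 3217 and 3716 counts, Lum 6358, 3708 and 3626 counts and Dcn 25935, 15632 and 17875 counts, with excision and PNU-282987 both under sham. In the fibrotic list Cthrc1 (475, 104 and 315 counts, 2.9-fold (2.31 to 3.65)), Ccn2 (1054, 656 and 1485 counts, 2.16-fold (1.97 to 2.38)) and Thbs1 (2016, 794 and 1677 counts, 2.02-fold (1.85 to 2.2)) were higher. Timp3, an inhibitor of metalloproteinases, had 3731, 1462 and 3283 counts and Adamts1 354, 120 and 352 counts, both higher.

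Corneal epithelial identity genes were not called in either direction in any of 24 measured genes (median 0.02). Calls were rare among abundant genes of any kind: from 100 to 1000 CPM 0.371% of measured genes were higher and 1.55% lower. The absence of calls in this list is therefore not particular to it. Krt12, the cornea-specific keratin, had 1541851 (sham), 1135144 (excision) and 1634592 (PNU-282987) counts, 1.38-fold higher (95% interval 1.37 to 1.38). Pax6, the eye-field transcription factor, had 22930, 20945 and 22491 counts (1.03-fold (1.01 to 1.05)), and Krt5 had 693158, 724199 and 767997 counts. The widest gap in this list was Krt15, a keratin of basal and limbal cells, at 65935, 137853 and 241041 counts (1.67-fold (1.66 to 1.68)). Its counts and those of Krt13 (78979, 114747 and 179377 counts) and Krt4 (3013, 14142 and 21643 counts) were lowest in sham, intermediate in excision and highest in PNU-282987. None of the last 3 reached 2-fold between excision and PNU-282987.

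In the list of wound keratins and wound genes 4 of 30 (13.3%) were higher and none lower, where 3.75% of all measured genes were higher. The list's median was -0.12, and 19 of 30 lay below 0. Krt16 had 979, 326 and 2546 counts and was 7.47-fold higher (95% interval 6.65 to 8.4), Krt17 was 2.18-fold (1.94 to 2.46) higher and the protease inhibitor genes Serpinb3a and Serpinb2 2.02-fold (1.89 to 2.16) and 2.76-fold (1.59 to 5.02). Among the other 26 the hemidesmosome genes Itgb4 (4669, 6083 and 3399 counts), Lamb3 (816, 981 and 580 counts) and Lama3 (3906, 4750 and 2965 counts) were below 0. In the cornified envelope list 5 of 21 (23.8%) were higher: Lce3f (50, 3 and 26 counts), Lce3b (205, 12 and 71 counts), Lce3a (2.57-fold (2.37 to 2.79)), Crct1 (2.41-fold (1.93 to 3.02)) and Cnfn (2.21-fold (1.96 to 2.49)). Its median was 0.10, with 10 of 21 below 0, and Lce3f and Lce3b were under the count minimum in excision. Reads may be split among the similar Lce3 genes. Of 34 junction genes, Cldn10 and the desmosomal plakophilin gene Pkp2 (2.58-fold (1.96 to 3.42)) were higher and none was lower. The higher share of this list, 5.88%, is near the 3.75% of all measured genes.

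The receptor that the eyedrops target was near the detection limit. Chrna7, the α7 subunit, had 11 (sham), 2 (excision) and 9 (PNU-282987) counts, under the count minimum, with an interval for the ratio of 0.890 to 40.9 that includes equal levels. Of the 19 measured cholinergic genes 3 (15.8%) were higher and 2 (10.5%) lower, where 3.75% and 5.59% of all measured genes were. Among those called, 4 were under the count minimum in 1 of the 2 libraries and were measured through the other alone. The list's median was -0.05, and 10 of 19 lay below 0. Chrm1, a muscarinic receptor gene, had 27, 4 and 22 counts, Ache, acetylcholinesterase, 32, 6 and 22 counts and Chrnb3 62, 9 and 30 counts, while Ly6g6d (15, 24 and 5 counts) and Lypd1 (19, 51 and 22 counts), of the Ly6 family, were lower. The abundant Ly6-family modulators Slurp1 (97602, 102824 and 86657 counts), Lypd2 (185283, 211070 and 154093 counts) and Lynx1 (12652, 13129 and 12930 counts) all lay within 2-fold. The lens list moved with the higher cholinergic genes across the libraries (173 CPM in excision, 812 CPM in PNU-282987), and its part in them was not tested.

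Of 8 measured neuronal and sensory genes 3 (37.5%), all channel genes, were lower and 2 (25%) higher, where 5.59% and 3.75% of all measured genes were. The list's median was -0.77, and 6 of 8 lay below 0. Piezo2, a mechanosensitive channel of sensory neurons and epithelial touch cells, had 2099 (sham), 1998 (excision) and 838 (PNU-282987) counts, 2.49-fold lower (95% interval 2.3 to 2.71). Trpv4, an osmotic and mechanical sensor, had 899, 1067 and 558 counts (2.0-fold (1.8 to 2.22) lower, just under 2-fold with DESeq2 size factors), Trpv3 51, 71 and 35 counts, and Piezo1 3000, 4591 and 2724 counts without reaching 2-fold. Sham and excision lay close together for Piezo2 and Trpv4, with PNU-282987 below both. The 2 higher genes, Snap25 at 3, 5 and 30 counts and Uchl1 at 41, 17 and 50 counts, passed the count minimum through PNU-282987 alone. Of 33 neurotrophic and guidance genes, 4 (12.1%) were higher and none lower, where 3.75% of all measured genes were higher. The list's median was -0.07, and 18 of 33 lay below 0. Bdnf (12, 2 and 25 counts) passed the count minimum through PNU-282987 alone. The guidance cue gene Slit2 had 942, 118 and 371 counts (3.01-fold (2.44 to 3.73) higher). The GDNF receptor gene Gfra1 had 729, 146 and 393 counts (2.57-fold (2.12 to 3.13)) and Nrp2 221, 76 and 189 counts (2.38-fold (1.81 to 3.14)). For Slit2, Gfra1 and Nrp2 the sham count was the highest.

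Of 21 measured clock genes 2 (9.52%) were lower and none higher, a share near the 9.35% of all measured genes called in either direction. Arntl, which encodes the clock activator BMAL1, had 903 (sham), 615 (excision) and 165 (PNU-282987) counts, 3.9-fold lower (95% interval 3.28 to 4.66). Nr1d1, the repressor REV-ERBα that acts on Arntl, had 6023, 8786 and 3968 counts (2.32-fold (2.23 to 2.41) lower). Of the other members, Per2 had 518, 988 and 1523 counts, Cry1 351, 358 and 697 counts and Dbp 3814, 5159 and 5677 counts, all within 2-fold. The labels give no time of day for tissue collection. Of 17 measured glucocorticoid and metallothionein genes 2 (11.8%) were higher and 1 (5.88%), Dusp1, was lower, with 8 of 17 below 0. Fkbp5, a glucocorticoid receptor target, had 3211, 3302 and 7077 counts (2.05-fold (1.97 to 2.14) higher), while Tsc22d3, another target, had 3701, 6155 and 6074 counts. Sult1a1 had 308, 109 and 530 counts (4.65-fold (3.78 to 5.77) higher). Immediate early genes were below 0 in 23 of 27 cases (24 with total-count scaling), with Atf3 (4.34-fold (3.06 to 6.3) lower), Fosb (4.32-fold (3.36 to 5.62)) and the phosphatase gene Dusp1 (2.01-fold (1.91 to 2.12)) called, and none was higher. The lower calls were 11.1% of that list, where 5.59% of all measured genes were lower.

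Ribosomal protein genes shifted together by less than the call threshold. All 76 had a log2 ratio below 0 (75 with DESeq2 size factors), with a median of -0.48, and their summed level was 103827 CPM in excision, 75228 CPM in PNU-282987 and 83552 CPM in sham. No member was called. Nuclear oxidative phosphorylation genes had a median of -0.22 with 37 of 49 below 0 and none called. Glycolysis genes lay above 0 in 19 of 23 cases (18 with total-count scaling; median 0.20) and antioxidant genes in 22 of 30 (median 0.26), including the abundant corneal glutathione transferase gene Gsto1 at 1075028, 919665 and 1287197 counts. In DNA replication, cholesterol synthesis, heat shock and polyamine genes 0 of 28, 28, 18 and 14 were called. Among 30 mitosis genes 26 were below 0 and 1 (3.33%), Cdkn3 (385, 344 and 176 counts), was called lower, where 5.59% of all measured genes were. Mki67 had 2097, 1513 and 919 counts.

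Non-coding genes were called lower more often than coding genes. Of 1009 measured non-coding genes 197 (19.5%) were lower and 46 (4.56%) higher, against 578 (4.50%) and 474 (3.69%) of 12846 protein-coding genes. By level, from 1 to 10 CPM 60 of 491 non-coding (12.2%) and 222 of 3471 coding genes (6.40%) were lower, and from 10 CPM up 10 of 62 (16.1%) and 109 of 8362 (1.30%). Below 1 CPM the shares were 27.9% and 24.4%. Higher calls were less frequent among non-coding genes at each level, at 8.33% against 19.2% below 1 CPM, 1.63% against 6.40% from 1 to 10 CPM, and 0 of 62 against 0.694% from 10 CPM up. The most abundant of them, the nuclear RNAs Neat1 and Malat1, had 32936, 47199 and 22964 counts and 23536, 30640 and 15646 counts and were 2.15-fold (2.12 to 2.18) and 2.05-fold (2.01 to 2.09) lower. The median log2 ratio of non-coding genes was -0.32 between PNU-282987 and excision, 0.18 for excision over sham and -0.13 for PNU-282987 over sham, comparisons that share libraries.

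Base composition moved with the ratio to a small extent. For 13167 genes (95.03%) with a transcript in GENCODE M21, the median log2 ratio was 0.11 in the lowest of 5 equal groups by GC content and -0.14 in the highest. Lens genes, with a list median of 4.80, had a median GC content of 55.6%, and goblet and conjunctival genes, with 0.55, had 54.1%. Antiviral effectors (-1.85) had 49.97% and ribosomal proteins (-0.48) 51.0%. The part of base composition in any single result was not tested.

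**Figure D5:**
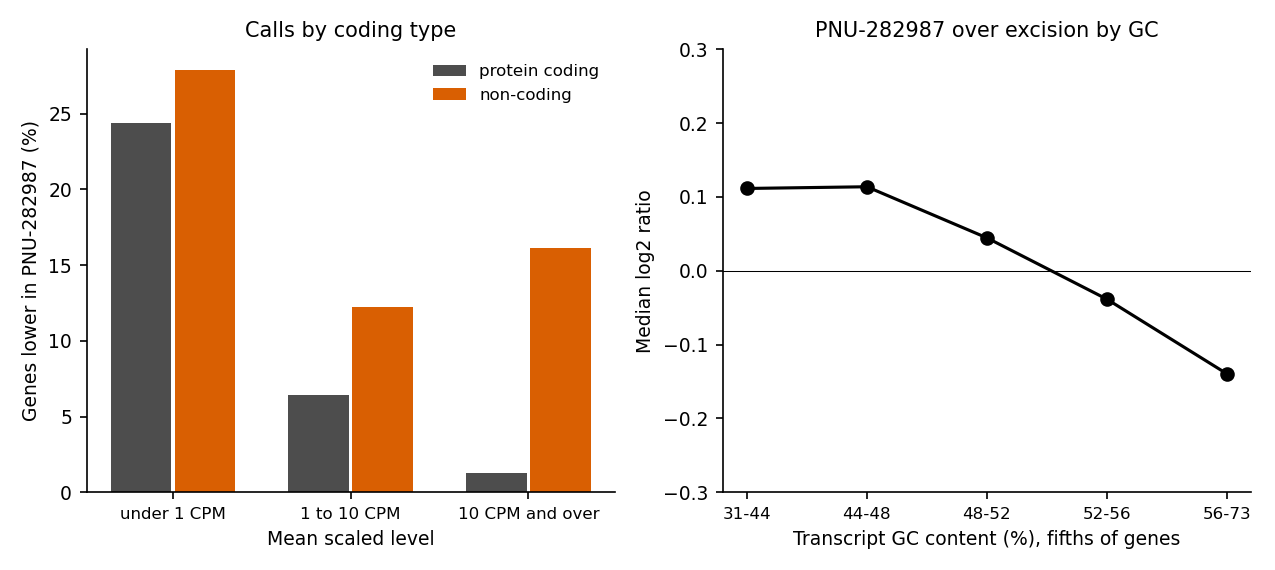
Left, the percentage of protein-coding (grey) and non-coding (orange) genes called lower in PNU-282987 at 3 mean scaled levels in CPM, where non-coding genes reach 16.1% at 10 CPM and over against 1.30% of coding genes. Right, the median log2 ratio of PNU-282987 over excision in 5 equal groups of genes by transcript GC content in percent, from 0.11 at the lowest GC to -0.14 at the highest.

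Most called genes belonged to none of the lists: 415 of the 520 higher and 637 of the 775 lower. Of the 20 genes with the largest higher ratios, 2 came from outside the lists, Nanp, a sialic acid synthesis phosphatase gene, at 38, 6 and 132 counts (21-fold (9.41 to 58.3)) and Rhox4a, a reproductive homeobox gene with near-identical copies, at 2, 8 and 118 counts (14.1-fold (6.93 to 33.4)). Ide, the insulin-degrading enzyme, had 3182, 3053 and 8281 counts (2.59-fold (2.49 to 2.7) higher) and Cyp26b1, which breaks down retinoic acid, 4752, 2862 and 6245 counts (2.09-fold (2.0 to 2.18) higher). Plac8 had 29338, 41445 and 21224 counts (2.04-fold (2.01 to 2.08) lower). For Ide, sham and excision were level and PNU-282987 alone was high.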

How the data were processed

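RNA of mouse cornea was measured in 3 libraries, 1 each for sham, excision and PNU-282987. Per the labels' protocols, RNA was isolated with TRIzol and a VAHTS Universal V6 kit served for library preparation. A single table of read counts per gene, in whole numbers, was deposited by the authors, and per the submitters' processing notes HTSeq and R 3.2.0 were used. No source used here gives the aligner, genome build, annotation or strand setting, so genes with close copies, overlapping genes and antisense genes may exchange reads. Each column's name matches its sample's title.

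Counts were scaled with TMM factors over the 3 libraries (edgeR 4.0.16, R 4.3.3), which were 1.04 (sham), 0.985 (excision) and 0.9803 (PNU-282987). Genes with at least 20 counts in excision or PNU-282987 were kept. The ratio of scaled counts was taken with nothing added, and its 95% interval is the exact conditional binomial (Clopper-Pearson) interval (SciPy 1.17.1, Python 3.11.15). A count of 0 was set to a floor of 3 counts, which makes the ratio a bound. The ratios were tested on simulated counts. Other scalings included DESeq2 1.42.0 size factors.

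The 60 gene lists and the comparison were chosen with earlier results of these data known. Named genes are the 20 largest ratios each way at 100 or more counts, gene models and pseudogenes excluded, the 10 largest differences in CPM each way, the 5 largest called ratios per list, list members needed to describe a list, and 12 genes on the receptor, macrophages and corneal identity. Not every gene that meets the rule is named, and some are not reported here. Promoter sequences are from RefSeq on GRCm38.p6, matched by gene ID, and transcripts from GENCODE M21, matched by symbol. The build behind the counts is not stated, so no other coordinates are given.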

Additional observations from a re-analysis of the deposited data

How the results depend on the processing

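The counts of 520 higher and 775 lower genes depended on the count minimum and the fold threshold. They were 321 and 434 with a minimum of 50 counts, 793 and 1240 with no minimum, 1048 and 1560 with a fold threshold of 1.5, and 175 and 232 with a fold threshold of 4. A minimum of 10 counts gave 717 and 1088, a 99% interval 464 and 696, total-count scaling 512 and 785, and DESeq2 size factors 525 and 771. TMM over the 2 libraries compared scaled them to each other as the main setting did, so its 520 and 775 are no separate check. With a minimum of 50 counts the median log2 ratio of metalloproteinase genes changed sign, from -0.11 to 0.11, and fewer members were measured. Under total-count scaling and DESeq2 size factors no called gene among those named and no list median changed sign. Of 1067 list members 4 gained or lost a call. The median log2 ratio of all genes stayed between 0.00072 and 0.014. No paired analysis was possible because each group has 1 library, and for the same reason no replicate could be left out. Depth limits genes such as Chrna7, with 2 counts in excision and 9 in PNU-282987.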

Other observations

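Some genes had more counts than sham in both other libraries and lay within 2-fold between excision and PNU-282987. They were chosen after their values were seen, and no test was made. The transcription factor gene Barx2 had 43 (sham), 212 (excision) and 229 (PNU-282987) counts, and the interferon-linked factor gene Irf8 had 46, 102 and 111 counts. Rgs5, a pericyte marker, had 4, 35 and 35 counts. Krt19 had 2942, 6819 and 6825 counts and the keratin gene Krt14 9011, 16496 and 17896 counts. Per1, a clock gene, had 776, 2225 and 1468 counts, and Tsc22d3, a glucocorticoid target, 3701, 6155 and 6074 counts.

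Other genes had fewer counts than sham in both libraries. The neutrophil chemokine gene Cxcl2 had 225 (sham), 19 (excision) and 22 (PNU-282987) counts, Mpo 515, 112 and 131 counts, Elane 602, 132 and 156 counts and the inflammatory cytokine gene Tnf 816, 352 and 337 counts. The lactate transporter gene Slc16a3 had 138, 16 and 20 counts, and Loxl2, a collagen cross-linking enzyme, 326, 91 and 86 counts. For these genes excision and PNU-282987 differed by less than 2-fold.

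Among imprinted non-coding RNAs outside the lists, also chosen after their values were seen, Meg3 had 113, 88 and 14 counts and Kcnq1ot1 134, 152 and 68 counts, both lower in PNU-282987 than in excision (6.58-fold (3.72 to 12.5) and 2.34-fold (1.75 to 3.16)).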
